A study of Oryctolagus cuniculus with 8 samples.

Results

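Splicing factors and RNA helicases are the proteins that cut introns out of new transcripts and that unwind, remodel and carry RNA. Gene entries were taken when their symbol occurred once in the table and belonged to the SRSF, SF3A or SF3B, SNRP, PRPF, RBM, DDX or DHX families, leaving out the innate RNA sensors DDX58 and DHX58. This gave 96 genes of 20922 gene entries. The rule used names and no expression values, but the families were chosen with earlier results of these data known. They were sorted by function into 7 SR proteins, 7 SF3A and SF3B subunits, 9 Sm and other snRNP proteins, 10 PRPF factors, 27 RBM proteins, 12 spliceosomal and mRNA export helicases, 8 ribosome biogenesis helicases and 16 other helicases. SRSF5, RBM24, RBM38, DDX6, DDX60 and DHX9 were not analysed here.

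The expression of these genes was compared between 4 libraries of side population (SP) cells and 4 libraries of non-side-population (NSP) cells. Cells of both groups were obtained from the limbal epithelium, the rim of the corneal surface, of New Zealand white rabbits, and were separated by their staining with the DNA dye Hoechst, which side population cells pump out. No treatment or genetic change is named for either group, and nothing in the labels ties the libraries of a group to separate rabbits. The spread behind every p-value is therefore that between libraries, which may be technical. Total RNA was read on an Ion Proton sequencer.

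The spliceosome is built for each intron from small nuclear RNAs, each carried in a particle (snRNP) with a ring of Sm proteins. The U1 particle marks the start of the intron, the U2 particle with its SF3A and SF3B subunits takes hold of the branch point, and the PRPF factors and DEAD- or DEAH-box helicases (DDX and DHX genes) drive the rearrangements that lead to cutting and joining. SR proteins and many RBM proteins bind the transcript itself and help choose which exons are kept, while other helicases of the same families act in ribosome assembly, mRNA export, translation and the germ line. In epithelia, this machinery is known for exon choices that differ from those of mesenchymal cells and that depend on the ESRP proteins.

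Levels are CPM, exon reads scaled to a common library total, given for SP libraries 1 to 4 and NSP libraries 1 to 4 in column order. The SP libraries held 15553295 to 18931836 exon reads and the NSP libraries 20445565 to 23529101 (exact permutation test over 70 splits, two-sided p = 0.0286, the smallest this design can give). Each log2 fold change is that of SP over NSP, with its 95% interval from limma-voom, and a gene was called at a Benjamini-Hochberg adjusted p under 0.05 over all 10012 genes that passed the filter on low counts. Marker genes listed for the cell types of the limbus differed between the groups. They were chosen with earlier results of these data known, so their calls are a description and no independent test. All 10 corneal and limbal epithelial markers were called lower in SP. Their summed levels were 770 to 6236 CPM in SP and 23553 to 43963 CPM in NSP libraries. All 7 endothelial markers were called higher in SP, with summed levels of 1001 to 10566 CPM in SP and 8.36 to 14.8 CPM in NSP libraries. Called higher as well were all 5 T and NK cell markers in the table (1485 to 5931 CPM in SP, 3.32 to 7.61 CPM in NSP), all 6 leukocyte markers (1387 to 2865 CPM in SP, 39.1 to 49.9 CPM in NSP), all 5 melanocyte markers (1654 to 11720 CPM in SP, 93.7 to 265.3 CPM in NSP) and 5 of 6 stromal markers (198.9 to 344.1 CPM in SP, 38.4 to 56.8 CPM in NSP). No endothelial or T and NK cell marker was at 0 in any SP library, whereas up to 5 endothelial and up to 2 T and NK cell markers were at 0 in an NSP library. The SP libraries thus held RNA of several cell types beside the labelled epithelium. Fewer cells of a type and less RNA per cell cannot be told apart in bulk samples, and the part of cell type mixture in the results below was not tested.

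SP library 4 stood apart from the other 3 SP libraries. It was the lowest or the highest of the SP group for 70 of the 91 tested splicing factor and helicase genes (76.9%), against 66.9% of all tested genes. NSP library 3 was likewise at an end of its group for 65 of the 91 (71.4%), against 66.9% of all tested genes. SP library 4 also had the highest summed endothelial markers (10566 CPM, against 1001, 3433 and 3765 CPM in SP libraries 1, 2 and 3). The other marker sums were highest in other SP libraries. Melanocyte (11720 CPM) and epithelial markers (6236 CPM) were highest in SP library 1. T and NK cell (5931 CPM), leukocyte (2865 CPM) and stromal markers (344 CPM) were highest in SP library 3. In 16 of the 91 genes (17.6%) the other 3 SP libraries were all above every NSP library while SP library 4 was not, against 6.56% of all tested genes. In 3 of the 91 (3.30%) the other 3 were all below every NSP library while SP library 4 was not. That share was also 6.56% over all tested genes. For several genes where SP library 4 decided a call or a direction, values are given with and without it. The splicing factor and helicase genes called without it and not with it are listed below.

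Few of the splicing factor and RNA helicase genes were called between the sorted populations. Of the 91 tested genes, 8 were called higher and 3 lower in SP, 12.1% in all, whereas 30.5% of all tested genes were called (15.4% higher and 15.1% lower). The genes called higher were RBM22, SRSF4, DDX26B, DDX50, PRPF39, RBM27, DDX3X and RBM7, and those called lower were PRPF40B, DHX35 and DDX59. The 95% interval of the change lay within 2-fold in both directions for 46 of the 91 genes, against 18.2% of all tested genes, and the groups did not overlap for 12 of the 91, against 32.8% of all tested genes. The median log2 fold change was 0.15 over the 91 genes and -0.01 over all tested genes. Without SP library 4, 20 genes were called higher and 3 lower, 25.6% of those tested, against 35.4% of all genes tested without it. Leaving out other single libraries gave between 1 gene (without NSP library 4) and 5 genes called higher. In either direction, 3.37% to 8.89% of the splicing factor and helicase genes were called in those fits, against 20.7% to 27.0% of all tested genes. DDX20, DDX52, DHX36, DHX40, PRPF18, PRPF38A, PRPF38B, RBM25, RBM26, SF3B1, SRSF10 and SRSF7 were called without SP library 4 and not with it. With upper-quartile factors for scaling, DDX3X, DDX50, PRPF39, RBM27 and RBM7 lost their calls, and with no filter beyond 1 read DDX50, RBM27 and RBM7 did.

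**Figure D1:**
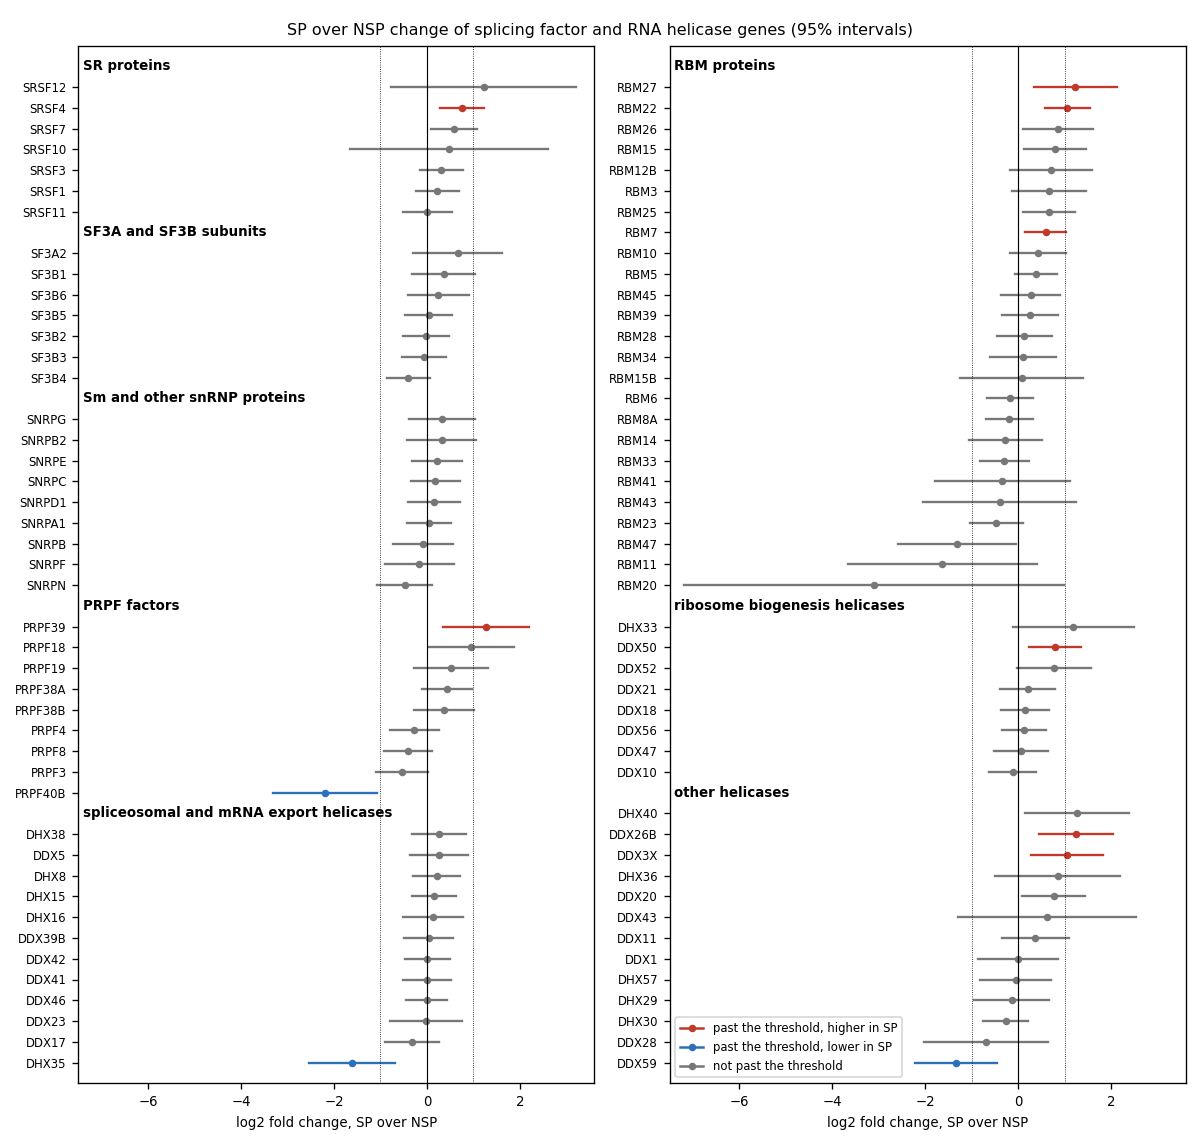
Log2 fold change, SP over NSP, of 90 of the 91 tested genes by role group (points) with 95% intervals (lines) from limma-voom; dotted lines mark a 2-fold change in each direction. Red marks the 8 genes called higher in SP, blue the 3 called lower and grey the rest, most of whose points lie between the dotted lines.

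**Figure D2:**
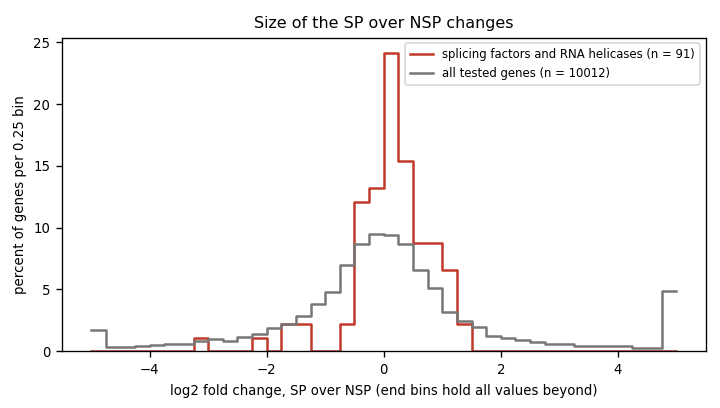
Percent of genes per bin of log2 fold change, SP over NSP, for the 91 splicing factor and helicase genes (red) and all 10012 tested genes (grey); the end bins hold all values beyond. The red line is narrow around its median of 0.15, while the grey line, with a median of -0.01, has long tails on both sides.

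The summed level of the 96 genes on the scaled CPM was 12945, 13667, 14467 and 12082 CPM in SP libraries and 11271, 10856, 9969 and 10654 CPM in NSP libraries, and the ranges do not overlap. Before scaling, they took 1.55%, 1.49%, 1.57% and 1.08% of the exon reads in SP libraries and 1%, 1.07%, 0.945% and 1.01% in NSP libraries, with SP library 4 close to the highest NSP library. Per kilobase of exon, DDX3X had the highest mean level in both groups, 832.4 CPM per kb in SP and 389.8 CPM per kb in NSP cells. In SP cells RBM3 (474.9 CPM per kb), SRSF7 (473.9) and DDX5 (404.3) came next, and in NSP cells DDX5 (326.4), SRSF7 (317.9) and RBM3 (317.8). These 3 levels are close together in NSP cells, and no order among them can be read. SNRPB, RBM8A, DDX39B and RBM39 followed in both groups, between 220.8 and 253.5 CPM per kb in SP and between 179.1 and 282.0 CPM per kb in NSP cells. The members also varied more among SP than among NSP libraries: the median SD of log2 CPM was 0.39 in SP and 0.25 in NSP libraries (0.60 in SP and 0.37 in NSP over all tested genes), and the SD was larger in SP for 70 of the 91 genes, much as for all tested genes (7341 of 10012).

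SR proteins bind exonic enhancers and recruit the U1 and U2 particles. Of the 7 tested, SRSF4 was called higher and none lower, and the median log2 fold change was 0.47. All 7 fold changes were above 0, although that of SRSF11 was below 0 with upper-quartile factors. SRSF4, a large SR protein, had 168, 132, 163.4 and 183 CPM in SP libraries, against 113, 89.8, 81.0 and 99.6 CPM in NSP libraries. Every SP library was above every NSP library. The log2 fold change was 0.75 (95% interval 0.29 to 1.22, adjusted p = 0.0208), and the call was lost without NSP library 4 (adjusted p = 0.0557, the highest of 16 alternatives, whose lowest was 0.00625). SRSF7, which links splicing to mRNA export, had 492, 525, 589 and 427 CPM in SP and 376, 399, 254 and 335 CPM in NSP libraries. These groups did not overlap either, but its adjusted p was 0.0731 (log2 fold change 0.59), and 0.037 without SP library 4.

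SRSF3, the smallest SR protein and an export adaptor like SRSF7, averaged 499 ± 72.1 CPM in SP and 400 ± 39.5 CPM in NSP libraries (SD, n = 4 each; log2 fold change 0.31, adjusted p = 0.278). SRSF1, the founding member of the family, averaged 173 ± 19.7 CPM in SP and 148 ± 22.1 CPM in NSP libraries, with a log2 fold change of 0.23 and an interval of -0.23 to 0.69. Neither passed the test, and both intervals exclude a 2-fold change. SRSF11 had nearly equal means, 241 ± 56.8 CPM in SP and 236 ± 32.2 CPM in NSP libraries. SRSF10, which becomes a general splicing repressor when dephosphorylated in heat shock, was the most uneven: 82.8, 23.2, 39.5 and 1.59 CPM in SP libraries, against 10.9, 19.8, 23.6 and 10.2 CPM in NSP libraries. SP library 4 lay below all NSP libraries and SP library 1 far above them, and the log2 fold change of 0.47 (interval -1.66 to 2.60) became 1.48 without SP library 4 (adjusted p = 0.0414) and -0.22 without SP library 1. SRSF12 was low in all libraries, with means of 1.83 CPM in SP and 0.754 CPM in NSP libraries.

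The U2 particle proteins SF3A2 and SF3B1 to SF3B6 gave no call in either direction among 7 tested, with a median log2 fold change of 0.04, and the intervals of 5 excluded a 2-fold change. SF3B1, which clamps the branch point, had 544, 430, 402 and 193 CPM in SP libraries, against 296, 301, 279 and 260 CPM in NSP libraries. The first 3 SP libraries were above all NSP libraries and the fourth below all of them. The log2 fold change was 0.37 with all libraries (interval -0.31 to 1.04, adjusted p = 0.399) and 0.68 without SP library 4 (adjusted p = 0.0201). SF3B6, which contacts the branch point adenosine, had the same shape with 40.2, 45.9, 41.0 and 19.8 CPM in SP and 30.9, 29.9, 26.9 and 33.1 CPM in NSP libraries, and log2 fold changes of 0.25 with and 0.49 without SP library 4. In contrast, SF3B3, a scaffold of the same subcomplex, averaged 249 ± 38.7 CPM in SP and 261 ± 33.7 CPM in NSP libraries (log2 fold change -0.07, interval -0.54 to 0.41). SF3B4, which holds the pre-mRNA upstream of the branch point, averaged 111 ± 14.9 CPM in SP and 146 ± 18.7 CPM in NSP libraries, with a log2 fold change of -0.40 and an adjusted p of 0.175. SF3A2 had the largest change of the subunits, 0.66, with an interval of -0.30 to 1.62. SF3B2 and SF3B5 had log2 fold changes of -0.02 and 0.04.

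None of the 9 Sm and other snRNP proteins was called, and all 9 log2 fold changes lay within 0.5 of 0 in size. SNRPB, the Sm B protein, had 194, 224, 277 and 410 CPM in SP and 352, 273, 195 and 340 CPM in NSP libraries. The SP range enclosed the NSP range, with a log2 fold change of -0.09 (interval -0.74 to 0.56). SNRPN, its close relative best known from the brain, had 31.7, 41.9, 66.0 and 62.9 CPM in SP libraries, against 65.0, 66.3, 68.5 and 68.5 CPM in NSP libraries. SP libraries 1 and 2 were below the NSP libraries while SP libraries 3 and 4 were near them, and the log2 fold change of -0.48 did not pass (adjusted p = 0.203). The U2 protein SNRPA1 averaged 135 ± 24.4 CPM in SP and 130 ± 12.7 CPM in NSP libraries. SNRPG, a member of the Sm ring, averaged 26.5 ± 9.59 CPM in SP and 20.6 ± 3.90 CPM in NSP libraries. SNRPC, SNRPD1, SNRPE, SNRPF and SNRPB2 had log2 fold changes between -0.16 and 0.31. How reads shared by near-identical copies were counted is not given in the sources used here, so levels of SNRPB, SNRPN and the small Sm genes are uncertain.

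PRPF factors act at every stage of spliceosome assembly, and of the 10 tested 1 was called higher and 1 lower. Both called genes are relatives of proteins of the U1 particle of yeast. PRPF39, a U1-associated factor, had 76.5, 53.9, 61.6 and 20.6 CPM in SP libraries, against 16.8, 24.0, 25.3 and 16.7 CPM in NSP libraries. The first 3 SP libraries were more than 2-fold above every NSP library, and SP library 4 lay among them. The log2 fold change was 1.27 (interval 0.36 to 2.19, adjusted p = 0.0398), and 1.64 without SP library 4 (adjusted p = 0.00171). The call was lost whenever 1 of the other 7 libraries was left out, and the adjusted p reached 0.104 over the 16 alternatives.

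PRPF40B, a U1-associated protein with WW and FF domains, had 1.80, 1.80, 1.07 and 4.33 CPM in SP libraries, against 8.61, 9.92, 6.35 and 10.7 CPM in NSP libraries. All SP libraries were below all NSP libraries, and the log2 fold change of -2.20 (interval -3.31 to -1.08, adjusted p = 0.0084) passed under all 16 alternatives, with values from -2.51 to -1.39. PRPF8, the scaffold of the catalytic core, averaged 210 ± 28.7 CPM in SP and 284 ± 62.1 CPM in NSP libraries, with a log2 fold change of -0.41 and an adjusted p of 0.213. PRPF19, the ubiquitin ligase of the activation complex, had 143, 142, 133 and 321 CPM in SP and 170, 123, 69.2 and 143 CPM in NSP libraries, and its log2 fold change was 0.51 with and 0.21 without SP library 4, passing in neither. PRPF18, a factor of the second splicing step, had 31.0, 22.5, 21.7 and 8.51 CPM in SP and 11.4, 9.30, 10.6 and 9.37 CPM in NSP libraries. Its log2 fold change was 0.95 (adjusted p = 0.103) with all libraries and 1.28 (adjusted p = 0.0064) without SP library 4. PRPF3 of the U4/U6 particle averaged 37.7 ± 8.71 CPM in SP and 54.0 ± 8.91 CPM in NSP libraries, a log2 fold change of -0.54 that did not pass (adjusted p = 0.134). PRPF38A and PRPF38B gave log2 fold changes of 0.43 and 0.36, and 0.59 and 0.64 without SP library 4. PRPF4, the partner of PRPF3, had a log2 fold change of -0.27 and did not pass.

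The RBM genes are named for an RNA-binding domain and differ in function. Of 27, 25 were tested; 3 were called higher and none lower. RBM22, which holds U6 RNA and the intron in the active spliceosome, had the smallest p of all 91 genes, with 275, 271, 362 and 324 CPM in SP libraries, against 162.9, 155, 110 and 168 CPM in NSP libraries. Every SP library was at least 100 CPM above every NSP library. The log2 fold change of 1.06 (interval 0.57 to 1.55, adjusted p = 0.00537) passed under all 16 alternatives.

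RBM7 and RBM27 belong to adaptors that hand nuclear transcripts to the RNA exosome. RBM7, a subunit of the nuclear exosome targeting complex, had 104, 111, 132 and 115 CPM in SP libraries, against 77.2, 73.8, 87.4 and 69.7 CPM in NSP libraries. RBM27 had 39.5, 31.9, 33.1 and 19.9 CPM in SP libraries, against 20.6, 12.4, 6.04 and 18.8 CPM in NSP libraries. The groups did not overlap for RBM7, whereas SP library 4 fell among the NSP libraries for RBM27. The log2 fold changes were 0.59 for RBM7 (adjusted p = 0.0455) and 1.22 for RBM27 (adjusted p = 0.0422). Each passed in 8 of 16 alternatives. RBM7 kept its call with SP library 4 or NSP library 3 left out and lost it without each of the other libraries, the adjusted p reaching 0.138 over the alternatives. RBM27 kept its call with SP library 4 or NSP library 1 left out and lost it without each of the other libraries, the adjusted p reaching 0.0953. RBM26, the paralogue of RBM27, had 41.1, 19.7, 39.7 and 22.5 CPM in SP and 19.3, 18.2, 12.5 and 15.9 CPM in NSP libraries, without overlap and with an adjusted p of 0.0803.

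Among the RBM genes that did not pass, RBM15, a partner of the m6A methyltransferase, was nearest to the threshold with 126, 218, 216 and 338 CPM in SP and 116, 145, 97.4 and 136 CPM in NSP libraries (log2 fold change 0.79, adjusted p = 0.0687). RBM25, a U1-associated regulator, came next with 199, 142, 222 and 110 CPM in SP and 109, 103, 91.8 and 107 CPM in NSP libraries (adjusted p = 0.0722). In both genes the SP libraries were uneven, SP library 4 being the highest for RBM15 and the lowest for RBM25. RBM47, an RNA editing and splicing cofactor abundant in epithelia, had 81.1, 114, 11.9 and 35.1 CPM in SP and 147, 94.5, 99.2 and 113 CPM in NSP libraries. SP libraries 1 and 2 were near the NSP level and SP libraries 3 and 4 far below it, and the log2 fold change of -1.33 did not pass (interval -2.60 to -0.06, adjusted p = 0.105). RBM39, a U2AF-related cofactor, averaged 620 ± 181 CPM in SP and 503 ± 71.6 CPM in NSP libraries. RBM5, a regulator of exon skipping in apoptosis genes, averaged 333 ± 42.3 CPM in SP and 257 ± 34.4 CPM in NSP libraries (adjusted p = 0.193). The cold-induced RBM3 overlapped widely, with 190, 272, 303 and 376 CPM in SP and 296, 161, 91.8 and 216 CPM in NSP libraries. RBM8A, a core protein of the exon junction complex, averaged 183 ± 35.9 CPM in SP and 208 ± 36.6 CPM in NSP libraries, and its interval of -0.70 to 0.32 excludes a 2-fold change. RBM20, the splicing regulator of titin in the heart, had reads in SP library 1 (0.976 CPM) and none in the other 3 SP libraries, and 0.909, 1.78, 0 and 2.52 CPM in NSP libraries. RBM11 was equally low, with means of 0.262 CPM in SP and 0.608 CPM in NSP libraries. The remaining 12 tested RBM genes had log2 fold changes between -0.47 (RBM23) and 0.71 (RBM12B), and none passed. RBM12 and RBM46 had 4 and 15 reads over all libraries and were not tested.

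Spliceosomal and mRNA export helicases use ATP to move the spliceosome from one stage to the next. Of the 12 tested, 1 was called lower and none higher, and the intervals of the other 11 all excluded a 2-fold change, the largest such share of the 8 role groups. The exception, DHX35, a helicase found in catalytically active spliceosomes, had 3.44, 4.83, 3.69 and 4.69 CPM in SP libraries, against 16.8, 12.4, 7.58 and 15.4 CPM in NSP libraries. Every NSP library was above every SP library, and the log2 fold change of -1.61 (interval -2.53 to -0.68, adjusted p = 0.0149) passed under all 16 alternatives. DDX5, a coactivator and splicing helicase, was the most abundant of the group with 1707, 1556, 1618 and 807 CPM in SP and 1402, 1130, 1022 and 1038 CPM in NSP libraries. SP library 4 was below all NSP libraries and the other 3 SP libraries above all of them, with log2 fold changes of 0.26 with and 0.51 without SP library 4 (adjusted p = 0.528 and 0.072). Its paralogue DDX17 averaged 73.2 ± 15.8 CPM in SP and 92.4 ± 25.6 CPM in NSP libraries.

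None of the helicases that act in turn through the splicing cycle was called. DDX46, which readies the U2 particle, averaged 137 ± 13.2 CPM in SP and 137 ± 14.3 CPM in NSP libraries (interval -0.44 to 0.43). DDX23, which releases U1, averaged 321 ± 190 CPM in SP and 293 ± 27.5 CPM in NSP libraries, with 597 CPM in SP library 4 against 163.3 to 276 CPM in the other SP libraries, and log2 fold changes of -0.03 with and -0.39 without that library. DHX16, DHX38 and DHX8, which power the first and second catalytic steps and mRNA release, had log2 fold changes of 0.13, 0.26 and 0.21, and of -0.08, 0.07 and 0.05 without SP library 4. DHX15, which takes the spliceosome apart, averaged 205 ± 32.5 CPM in SP and 184 ± 27.7 CPM in NSP libraries. DDX39B, which loads mRNA for export, averaged 488 ± 119 CPM in SP and 467 ± 49.8 CPM in NSP libraries, with an interval of -0.49 to 0.57. DDX41 and DDX42, found with the spliceosome and the SF3B complex, had log2 fold changes of 0.00 and 0.01.

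Of the 8 helicases of ribosome biogenesis, 1 was called higher and none lower. DDX50, a nucleolar paralogue of DDX21, had 27.1, 26.0, 25.4 and 22.9 CPM in SP libraries, against 12.8, 14.6, 17.1 and 14.9 CPM in NSP libraries. Both groups were tight and did not overlap, with a log2 fold change of 0.78 (interval 0.22 to 1.34, adjusted p = 0.0383). The call held with SP library 4 or NSP library 3 left out and was lost without each of the other libraries, and the adjusted p ranged from 0.0111 to 0.106 over 16 alternatives. DDX21 itself, the nucleolar helicase of rRNA transcription and processing, averaged 68.6 ± 17.3 CPM in SP and 59.9 ± 15.3 CPM in NSP libraries and did not pass (interval -0.40 to 0.80). DDX52 and DHX33, both needed for rRNA maturation or transcription, had log2 fold changes of 0.78 (adjusted p = 0.127) and 1.18 (adjusted p = 0.156) and wide intervals. DDX47 and DDX56, the most abundant of the group, had log2 fold changes of 0.06 and 0.12 with intervals that exclude a 2-fold change. DDX10 and DDX18 had log2 fold changes of -0.12 and 0.14.

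Among the 16 other helicases, 13 were tested, 2 were called higher and 1 lower. DDX3X, an X-linked helicase that helps ribosomes through structured leaders of mRNAs, had 1785, 2269, 2450 and 944 CPM in SP libraries, against 1064, 1007, 535 and 882 CPM in NSP libraries. SP libraries 1 to 3 were far above the NSP group and SP library 4 within it. The log2 fold change was 1.05 (interval 0.28 to 1.82, adjusted p = 0.0427), and 1.35 without SP library 4 (adjusted p = 0.00696). The call was lost whenever 1 of the other 7 libraries was left out, and the adjusted p reached 0.114 over the 16 alternatives. The treatment of reads shared with a Y-linked copy is not given in the sources used here.

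DDX26B, named as a DEAD-box gene but a paralogue of the Integrator subunit INTS6, had 25.9, 32.5, 38.2 and 16.5 CPM in SP libraries, against 10.1, 16.3, 13.3 and 8.52 CPM in NSP libraries. The groups did not overlap, SP library 4 lying just above NSP library 2. Its log2 fold change of 1.24 (interval 0.45 to 2.03, adjusted p = 0.0238) passed in 12 of 16 alternatives and was lost without SP library 2, SP library 3, NSP library 1 or NSP library 4 (adjusted p up to 0.0831 over the alternatives). DDX59, a helicase tied to ciliary signalling in human disease, had 18.8, 28.9, 9.43 and 43.6 CPM in SP libraries, against 48.7, 66.3, 53.3 and 46.8 CPM in NSP libraries. All SP libraries were below all NSP libraries, SP library 4 by little. The log2 fold change of -1.34 (interval -2.22 to -0.46, adjusted p = 0.0268) was -1.63 without SP library 4. The call held with SP library 2 or 4 left out and was lost without each of the others (adjusted p up to 0.0908 over the alternatives).

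DHX36, which unfolds G-quadruplexes, and DHX40 resembled DDX3X and PRPF39 in that only SP libraries 1 to 3 were above all NSP libraries. DHX36 had 65.0, 42.2, 60.3 and 7.72 CPM in SP and 17.2, 28.6, 17.2 and 18.1 CPM in NSP libraries, and DHX40 had 45.7, 27.9, 51.2 and 9.81 CPM in SP and 14.2, 12.3, 9.91 and 13.6 CPM in NSP libraries. SP library 4 was below all NSP libraries in DHX36 and DHX40, by very little in DHX40, whereas it lay within the NSP range in DDX3X and PRPF39. With all libraries the log2 fold changes were 0.85 for DHX36 (adjusted p = 0.319) and 1.26 for DHX40 (adjusted p = 0.0846). Without SP library 4 they were 1.47 for DHX36 (adjusted p = 0.00412) and 1.69 for DHX40 (adjusted p = 0.00355). DDX20, the Gemin3 subunit of the SMN complex that loads Sm rings, had 123, 128, 140 and 58.9 CPM in SP and 54.4, 60.0, 84.9 and 58.0 CPM in NSP libraries, with adjusted p of 0.0819 with and 0.00523 without SP library 4. DHX30, which acts in mitochondrial ribosome assembly, averaged 99.6 ± 19.5 CPM in SP and 119 ± 12.1 CPM in NSP libraries. DDX1, DDX11, DDX28, DDX43, DHX29 and DHX57 had log2 fold changes between -0.69 and 0.61 and did not pass. The germ-line helicases DDX4, DDX25 and DDX53 were not tested. DDX53 had no read in any library, DDX4 had 4 reads over the SP and 11 over the NSP libraries, and DDX25 had 6 reads over the SP libraries and 2, 27, 157 and 0 reads in NSP libraries 1 to 4.

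**Figure D3:**
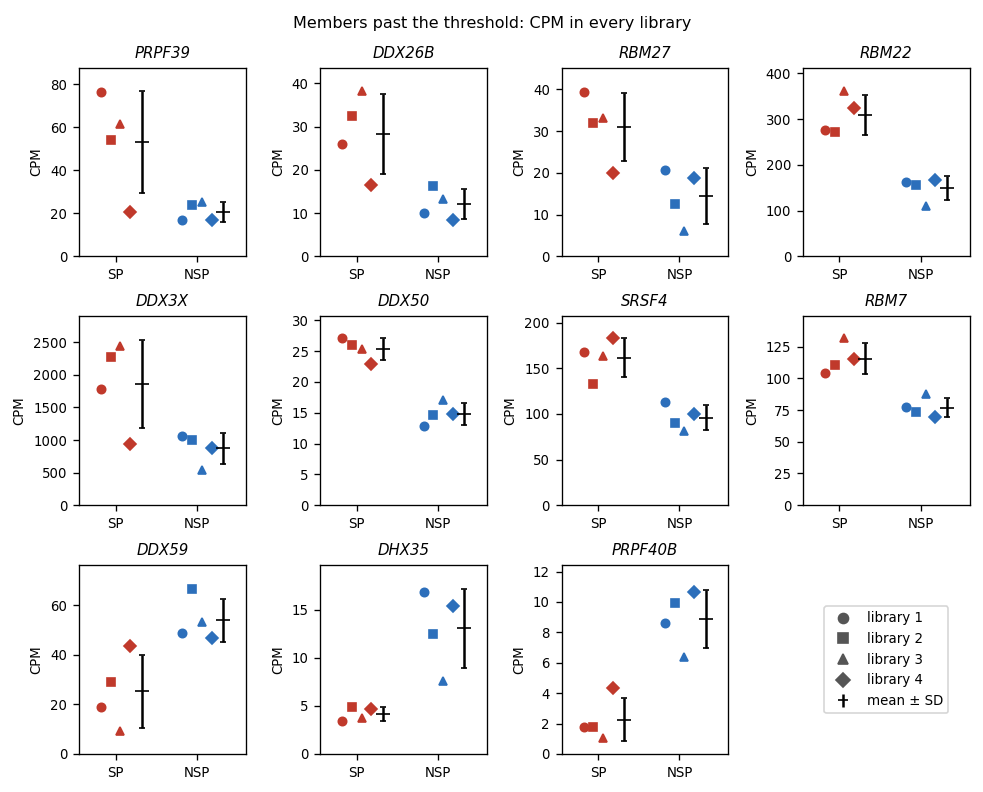
CPM in every library of the 11 called genes, SP on the left and NSP on the right of each panel; symbols mark libraries 1 to 4 in column order and bars the mean ± SD. SP library 4 (diamond) lies at the NSP level for PRPF39, DDX3X and RBM27, whereas the groups are apart for RBM22, SRSF4, DDX50, RBM7, DHX35 and PRPF40B.

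**Figure D4:**
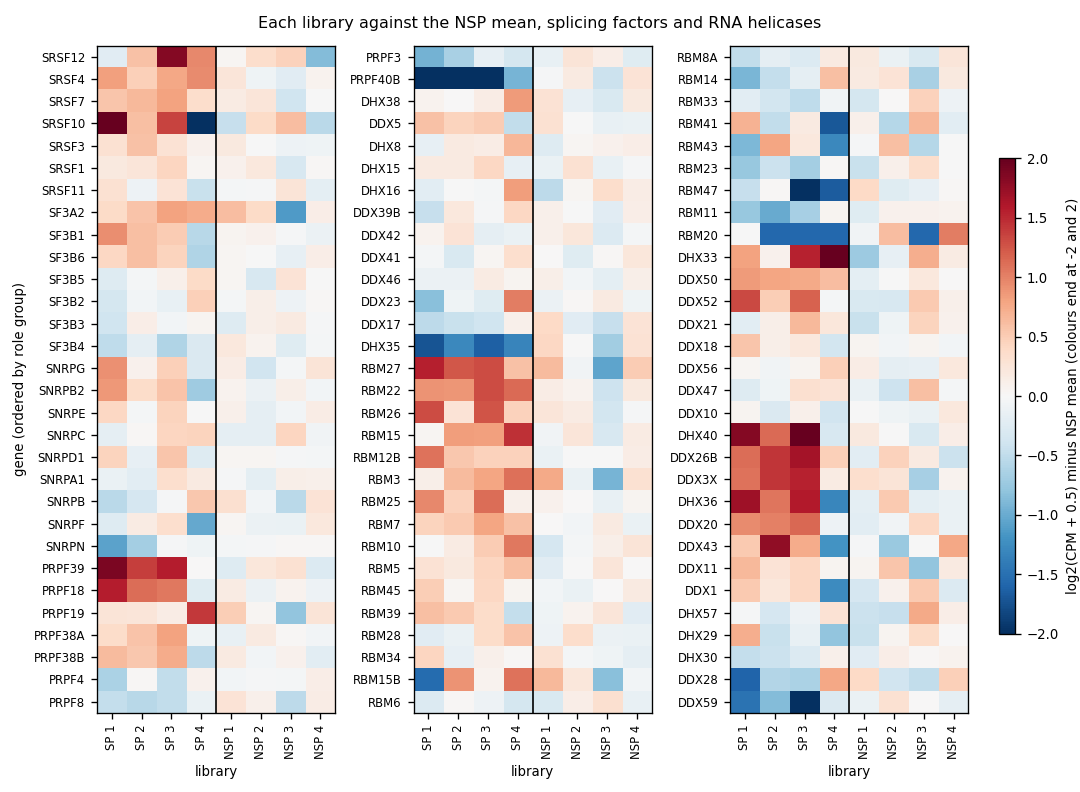
Difference of log2(CPM + 0.5) from the NSP mean for 90 of the 91 tested genes (rows, by role group) in the 4 SP and 4 NSP libraries (columns). Red is above and blue below the NSP mean; the SP library 4 column often has the opposite colour to SP libraries 1 to 3, as for DHX36, DHX40, SF3B1 and PRPF18.

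Around the threshold, adjusted p-values were close together. Just inside lay RBM7 (adjusted p = 0.0455), DDX3X (0.0427) and RBM27 (0.0422), and just outside RBM15 (0.0687), RBM25 (0.0722) and SRSF7 (0.0731). In the authors' deposited table, an EDGE test of the same groups, 4 of the 96 genes had an adjusted p under 0.05 and were higher in SP (DDX3X, DHX40, PRPF39 and RBM22) and 2 were lower (DHX35 and PRPF40B), against 13.4% of all 20922 entries. The largest of these in the authors' deposited table was PRPF40B, with a linear fold of 3.97, NSP over SP.

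Genes outside these families that work on the same transcripts were followed in 6 lists, and of their tested genes 12 were called higher and 10 lower in SP (17.6%), again against 30.5% of all tested genes. By list, the counts were 1 higher and 0 lower of 16 hnRNP proteins, 4 and 1 of 18 SR protein kinases and SR-related proteins, 2 and 2 of 31 other spliceosome components, 2 and 0 of 17 LSm and SMN complex genes and 1 and 1 of 17 exon junction complex and export genes. The tissue-restricted and other splicing regulators had 2 higher and 6 lower of 26 (30.8%).

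ESRP1 and ESRP2, which set the epithelial pattern of exon use, fell in SP. ESRP1 had 67.2, 74.4, 14.7 and 24.3 CPM in SP libraries, against 183, 196, 175 and 171 CPM in NSP libraries. ESRP2 had 59.8, 80.9, 14.9 and 36.5 CPM in SP libraries, against 138, 133, 159 and 158 CPM in NSP libraries. All SP libraries were below all NSP libraries in both genes, with SP library 3 the lowest. The summed epithelial markers were 6236, 1865, 770 and 4487 CPM in SP libraries 1 to 4. They too were lowest in SP library 3, but the rest of the order differed. The marker sum was highest in SP library 1, whereas both ESRP genes were highest in SP library 2. The part of epithelial content in the ESRP levels was not tested. The log2 fold changes were -2.29 for ESRP1 (adjusted p = 0.00393) and -1.86 for ESRP2 (adjusted p = 0.00907), and both passed under all 16 alternatives.

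The other switch regulators moved in both directions. RBFOX2, a regulator of alternative exons in many tissues, had 39.4, 43.8, 27.2 and 105 CPM in SP libraries, against 113, 120, 136 and 124 CPM in NSP libraries, a log2 fold change of -1.42 (adjusted p = 0.0114). In the muscleblind family, MBNL3 was called lower (1.53 ± 1.14 CPM in SP and 11.5 ± 2.82 CPM in NSP libraries, adjusted p = 0.00994), while MBNL1 rose. The fitted size for MBNL3, -3.71, ranged from -4.33 to -1.98 over the alternatives, and SP library 1 held 1 read of it. MBNL1 had 298, 348, 471 and 278 CPM in SP libraries, against 110, 157, 208 and 151 CPM in NSP libraries, with a log2 fold change of 1.16 (adjusted p = 0.00793). RBFOX2, MBNL1 and MBNL3 passed under all 16 alternatives. CELF4, a regulator best known from neurons, was called higher at a low level (1.39 ± 0.504 CPM in SP and 0.221 ± 0.265 CPM in NSP libraries, adjusted p = 0.03), and passed in 11 of 16 alternatives. TIA1 and RBFOX1, named after their values were seen, were called lower as well, with log2 fold changes of -0.81 and -1.99; the call of RBFOX1 was lost with each library left out in turn. QKI and CELF2 did not pass, with log2 fold changes of 0.27 (interval -0.31 to 0.85) and -0.05 (interval -0.70 to 0.61).

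**Figure D5:**
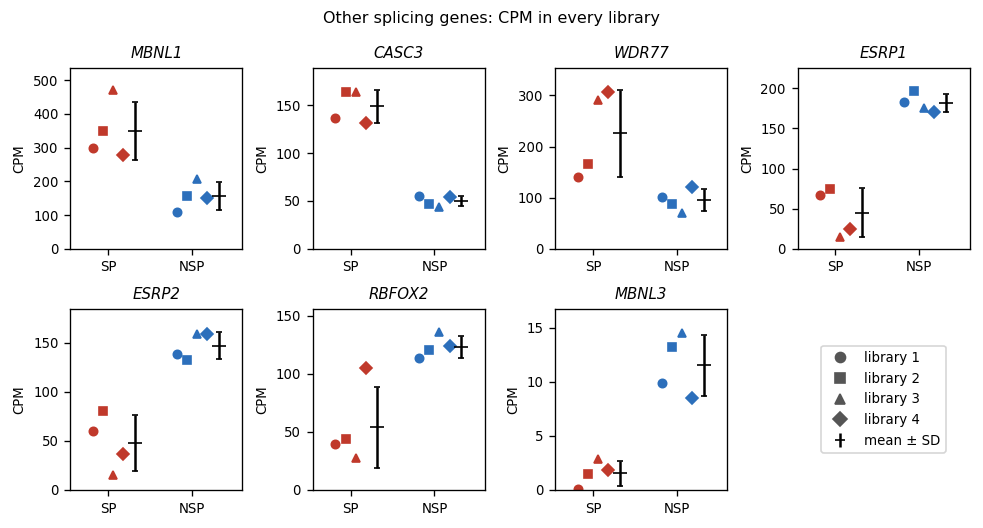
CPM in every library of 7 splicing genes outside the families, SP on the left and NSP on the right of each panel; symbols mark libraries 1 to 4 in column order and bars the mean ± SD. MBNL1, CASC3 and WDR77 are higher in every SP than in any NSP library, and ESRP1, ESRP2, RBFOX2 and MBNL3 are lower in every SP than in any NSP library.

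CASC3, a core protein of the exon junction complex, had the smallest adjusted p of the 6 lists. It had 136, 164, 164 and 131 CPM in SP libraries, against 55.0, 47.3, 43.4 and 54.1 CPM in NSP libraries, with a log2 fold change of 1.57 (interval 1.12 to 2.03, adjusted p = 0.000485), and passed under all 16 alternatives. Its partner in the core, RBM8A, did not pass, as given above. CHTOP, an export factor, was called lower, averaging 159 ± 31.0 CPM in SP and 249 ± 13.5 CPM in NSP libraries (log2 fold change -0.67, adjusted p = 0.0337, up to 0.14 over the alternatives). WDR77, the partner of the methyltransferase PRMT5 that prepares Sm proteins for assembly, had 141, 166, 290 and 306 CPM in SP libraries, against 101, 86.96, 70.4 and 122 CPM in NSP libraries (log2 fold change 1.20, adjusted p = 0.0142, past the threshold in 16 of 16 alternatives). PRMT5 itself, named after its values were seen, went the other way. Its log2 fold change was -0.67 (adjusted p = 0.113) with all libraries and -0.83 (adjusted p = 0.0431) without SP library 4.

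SRPK2, a kinase that phosphorylates SR proteins, had 117, 102, 124 and 101 CPM in SP libraries, against 190, 189, 274 and 192 CPM in NSP libraries. The groups were well apart, with a log2 fold change of -0.91 (adjusted p = 0.00925, past the threshold in 16 of 16 alternatives). Other SR protein kinases, named after their values were seen, did not share this direction. CLK4 was called higher (log2 fold change 1.15, adjusted p = 0.0498) and passed in 4 of 16 alternatives. CLK1 had log2 fold changes of 0.84 with and 1.41 without SP library 4 (adjusted p = 0.275 and 0.00796). CLK2 and SRPK1 passed in neither fit. The SR-related genes LUC7L3, SCAF8 and PNN were called higher, with log2 fold changes of 1.00, 0.98 and 1.03, and passed in 10, 9 and 7 of 16 alternatives. HNRNPDL was the called hnRNP gene and averaged 336 ± 95.5 CPM in SP and 176 ± 23.9 CPM in NSP libraries (log2 fold change 0.90, adjusted p = 0.0221, past the threshold in 13 of 16 alternatives). Of the other spliceosome components, CRNKL1 and SMNDC1 were called higher (log2 fold changes 0.98 and 0.98) and PPIE and CTNNBL1 lower (-0.73 and -0.87). CRNKL1 passed under all 16 alternatives, and SMNDC1, PPIE and CTNNBL1 in 10, 11 and 7 of 16.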

How the data were processed

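Libraries of 4 SP and 4 NSP samples were read on an Ion Proton sequencer, per the labels' protocols. For the aligner, genome build, annotation and strand setting, the sources used here give nothing. What the authors deposited is a fixed-width text table of 8-character fields in 6 stacked blocks with 20922 gene entries. The whole-number field of exon read counts of each library was read by character position; recomputed group means differ from those the authors deposited by at most 0.05. The measure is inferred from these values, since the headers are truncated, and 136 other per-library fields were not used. Columns name the group and not the sample, so libraries are numbered in column order. The fields touch, and a count test of edgeR or DESeq2 was not run.

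CPM were computed on library totals multiplied by TMM factors, which trimmed 30% of the ratios and 5% of the abundances. Genes with at least 0.508 CPM (10 reads in the median library) in 4 libraries and at least 15 reads in all (10012) were tested with limma-voom (limma 3.58.1, R 4.3.3; count offset 0.5; group only; two-sided; Benjamini-Hochberg adjusted p of 0.05 over all of them). The procedure was tested on simulated counts. Intervals come from the spread between libraries. The fold change and adjusted p of the authors' EDGE test, per the file headers, are quoted as deposited. Alternatives were other scalings, filters, limma-trend, quality weights and each of the 8 libraries left out in turn. No coordinates are given. The table was read and drawn with pandas 2.3.3, NumPy 2.4.6 and matplotlib 3.10.9 under Python 3.11.15.

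The members, the 6 other lists and the cell type markers were chosen with earlier results of these data known. The values of 1 tested member are not reported here and its row is left out of 2 figures; it stayed in all tests, counts, medians and sums. Named genes are, per role group, the called members, the 2 most abundant and the 2 with the largest change not past the threshold, plus a fixed list; of the other lists, up to 3 per direction with the smallest p and 7 fixed regulators, of which PTBP1 was not analysed here. Members named beyond this rule (among them RBM15, RBM25, RBM26, DDX20, SRSF10, SRSF11, SF3B6, RBM8A and DDX23) were chosen after their values were seen.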

Additional observations from a re-analysis of the deposited data

Results flagged for a closer look

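Libraries that lay far from the other 3 of their group were looked for with Dixon's ratio, at its 95% critical value, in 224 groups, the SP and the NSP libraries of 112 genes named or counted above. There were 13 such values, and chance alone gives about 5% of groups.

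In SP library 4, DDX17 (96.6 CPM), DHX16 (107 CPM), DHX38 (137 CPM) and PRPF19 (321 CPM) were far above the other 3 SP libraries, and DDX5 (807 CPM) far below them. Those libraries had 62.4 to 68.1 CPM of DDX17, 52.0 to 59.6 CPM of DHX16, 76.3 to 83.8 CPM of DHX38, 133 to 143 CPM of PRPF19 and 1556 to 1707 CPM of DDX5. None of these 5 genes was called with or without SP library 4.

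In SP library 1, RBM12B (8.02 CPM) was above the 5.01 to 5.32 CPM of the other SP libraries, and RBM20 (0.976 CPM) was above 3 libraries at 0. In NSP library 3, SNRPC (160 CPM) and SRPK2 (274 CPM) were high and RBM14 (23.6 CPM) was low. The other NSP libraries had 105.7 to 113.6 CPM of SNRPC, 189 to 192 CPM of SRPK2 and 42.2 to 45.3 CPM of RBM14. In NSP library 2, DHX36 (28.6 CPM) and RBM28 (50.2 CPM) were high, against 17.2 to 18.1 CPM and 35.7 to 36.3 CPM in the other NSP libraries. RBM11 was low in NSP library 1 (0.430 CPM, against 0.655 to 0.674 CPM).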

How the results depend on the processing

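RBM22, PRPF40B and DHX35 kept their direction and their side of the threshold under all 16 alternatives, namely 8 other settings and 8 left-out libraries. The count of members called higher in SP, 8 in the fit reported, was 3 with upper-quartile factors, 5 with no filter beyond 1 read, 17 with quality weights and 1 to 20 with a library left out (the highest without SP library 4); members called lower numbered 2 to 4 over all alternatives. Over all tested genes, quality weights called 39.1%, against 23.1% of the members, and the fits with a library left out called 20.7% to 35.4%. Of the other splicing genes, 12 higher became 23 with quality weights and 4 to 26 with a library left out, and 10 lower became 5 with library totals only and 5 to 12 with a library left out. The median log2 fold change of the members was 0.32 with library totals only, a setting that moved the median of all tested genes to 0.16, and 0.10 to 0.29 with a library left out; without NSP library 2 the median of all genes was 0.11. Over 67 named genes and 1063 comparisons with an alternative, 928 kept direction and side, 120 lost the call, 15 gained it and 0 reversed a call; 25 sign changes, in 7 genes, passed the threshold in neither fit. The cause was not tested. No paired analysis was possible because the table's columns carry no replicate numbers, and the planned edgeR and DESeq2 fits were not run. Library numbers are column order, not the numbers of the sample titles. Few reads lie behind RBM11, RBM20 and SRSF12, and behind the called genes CELF4 (0, 11, 0 and 7 reads in NSP libraries) and RBFOX1, whose intervals are wide.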
